A study of Sus scrofa with 14 samples.

Results

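The oxyntic mucosa (OXY) is the acid-secreting lining of the stomach, and its 7 arrays, 1 for each pig, were described alone, without the 7 arrays of the pyloric mucosa (PYL) that complete the 14 of the study. They were chosen by their tissue label, not by a measured value. The pigs were unrelated male Large White × Landrace crosses of 5 to 6 weeks and 11.1 kg on average, weaned, caged one by one, given a standard post-weaning feed for 5 days and killed after a morning meal. All 7 received the same treatment, so OXY forms 1 group and no group was compared with another. The piece of tissue came from the oxyntic gland area near the greater curvature. The study's methods call the pieces transmural sections, so layers below the mucosa may be part of a sample. Each array carries total RNA of such a piece, hybridized on a whole-transcript porcine array with 27460 transcript rows.

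Oxyntic glands hold parietal cells, whose H+/K+-ATPase exchanges potassium for protons and acidifies the lumen, and chief cells, which store pepsinogens in granules and release them at a meal. Mucous neck cells line the upper gland, surface mucous cells cover the pits with gastrokines and mucins, and scattered endocrine cells release ghrelin, somatostatin and histamine. Beneath the glands lie connective tissue, the muscularis mucosae and, in a full wall, the muscle coat with its enteric neurons.

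Of the rows, 11982 carry 1 gene symbol, which gives 10912 named genes, and where a gene had several rows, the one of highest mean stood for it. Values are log2 intensities. The arrays fell into 2 sets by their distributions, pigs 1 to 3 with array medians from 4.83 to 4.92 and pigs 4 to 7 with medians from 5.63 to 5.69. A named gene read higher by a median of 0.85 in the second set. The source of this difference was not tested. The order of the genes was nearly the same on all arrays, with Spearman correlations across rows of 0.980 to 0.990 within the sets and 0.962 to 0.977 between them. Variation among pigs was therefore read only after the mean of each set had been subtracted, as a within-set SD with 5 degrees of freedom. A sample is a whole piece of tissue, in which fewer cells of a type and less RNA per cell cannot be told apart.

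The 4 markers of the oxyntic gland were among the 30 named genes with the highest mean. ATP4A, the catalytic subunit of the proton pump, read 11.97 to 12.07 in pigs 1 to 3, lowest in pig 2 and highest in pig 3, and 12.08, 12.33, 12.21 and 11.93 in pigs 4 to 7. ATP4B, its glycosylated β subunit, read 11.22, 11.25 and 11.39, then 11.93, 11.94, 11.88 and 11.85. Both subunits were high in every pig, and the pigs of 1 set lay within 0.40 of each other for ATP4A and within 0.17 for ATP4B. Pepsinogen A, annotated as PGA5, read 12.49, 12.59 and 12.62, then 12.88, 12.82, 12.86 and 12.85, the first rank among named genes on every array. Pepsinogen C (PGC) read 11.87, 12.14 and 12.10, then 12.42, 12.31, 12.42 and 12.34. Pig 1 was the lowest of its set for both pepsinogens and pig 5 the lowest of the other set. All 4 markers were thus high in all 7 samples. In the paper's values PGC was high in PYL too, though lower than in OXY, so PGC alone does not tell OXY from PYL. Gastrin (GAST), the hormone of the pyloric glands, had a mean of 5.48, below the median named gene at 5.91.

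The rest of the 30 were mostly secreted stomach proteins and products of housekeeping machinery. The gastrokines GKN2 and GKN1, made by surface mucous cells, had means of 12.40 and 11.76, and CLDN18, a claudin of stomach tight junctions, had 11.58. Chymosin (CYM), the milk-clotting protease of young mammals, had a mean of 11.68 and the widest rank range of the 30, from 9 to 102. Transcobalamin 1 (TCN1), a vitamin B12 binding protein of secretions, had 11.56. Of the mitochondrial genome, COX1, ND5, COX2, ND1, ND3 and CYTB were present, from 12.25 to 11.74. Translation contributed EEF1A1, RPS10 and RPL8, secretion of proteins into the endoplasmic reticulum SSR2 and CALR, the cytoskeleton ACTB, TMSB10 and TMSB4X, and the matrix COL1A1 at 12.05.

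Intensities in this range may approach saturation, and rows differ in probe affinity, so these ranks do not order the amounts of RNA. Of the 30 genes, 28 were among the first 50 named genes on every array, and the sets shared 26 of their own first 30. The mean of rank 30 was 11.56 and that of rank 31 was 11.54. For 2 of the 30 the name is doubtful. TBCB and SLC2A2, a tubulin cofactor and the glucose transporter of liver and pancreatic islets, had means of 12.61 and 12.29, while the second rows of both genes had means of 6.86 and 5.70. Among 792 named genes with a second, different row, 66 showed a difference of at least 3 between the means of their first and second rows.

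**Figure D1:**
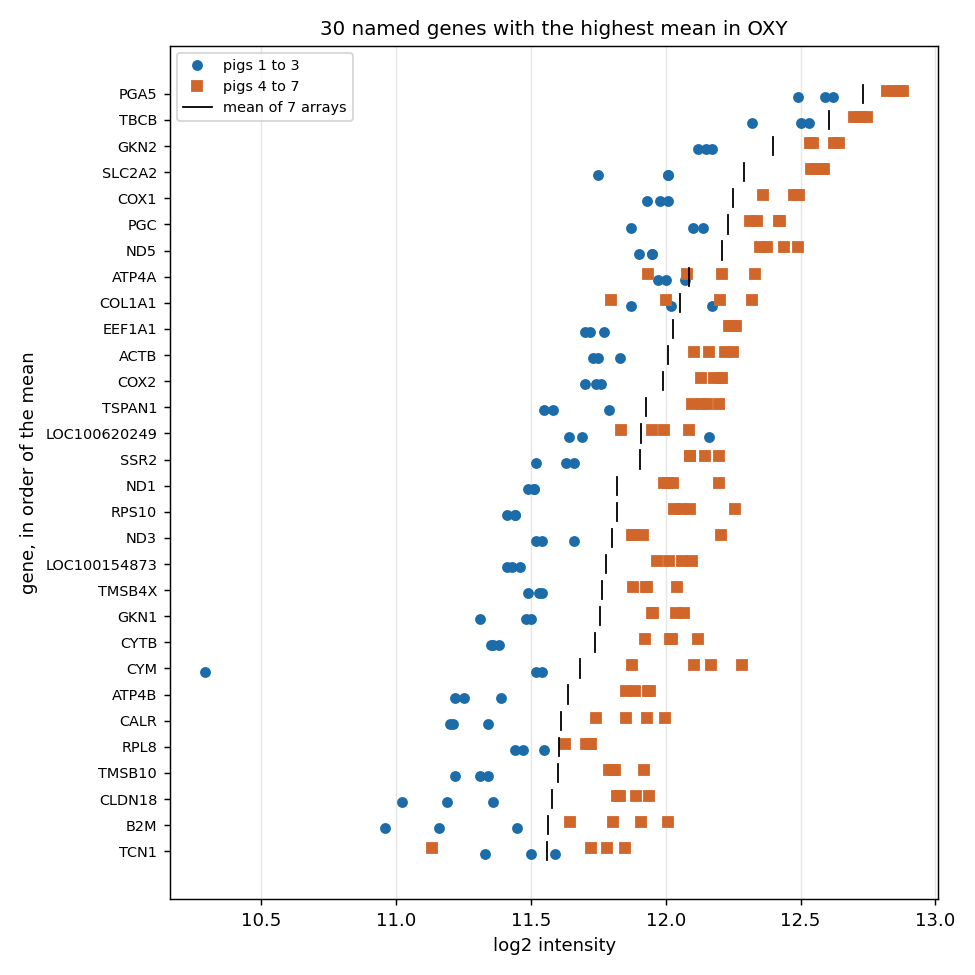
Log2 intensity (x axis) of the 30 named genes with the highest mean in OXY (y axis, in order), with circles for pigs 1 to 3, squares for pigs 4 to 7 and a tick at the mean of the 7 arrays. PGA5 lies highest at a mean of 12.73, and CYM in pig 1 lies at 10.29.

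Levels of cell types and machinery were read from 44 lists. The parietal list had 17 measured genes of 24, with a median level of 8.98 at the 92.3rd percentile of all named genes, and 10 of the 17 lay above the 90th percentile. Beside the pump, these were led by ezrin (EZR, mean 11.32), which ties microvilli to actin, the exchanger SLC9A4 (11.05) and the potassium channel subunit KCNE2 (10.17), which serves the recycling of potassium at the parietal cell apex. Also above that percentile were the water channel AQP4 (9.54) and the potassium channel KCNJ15 (8.79), while the histamine receptor HRH2 (8.21) lay below it. The estrogen-related receptor ESRRB, a transcription factor of parietal cells in mice, stood at 6.75. The median intensity of 10 ATP synthase subunits was 10.41, at the 98.5th percentile, and that of 26 respiratory chain subunits was 8.99, at the 92.3rd. The ATP synthase subunit ATP5B had a mean of 11.30.

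The chief cell list had 6 measured genes of 11 and a median of 9.94. The surface mucous list had 7 of 14 and 10.97, and 18 genes of protein folding in the endoplasmic reticulum had 9.82. Among 15 endocrine genes the median was 5.48, yet ghrelin (GHRL), somatostatin (SST) and chromogranin A (CHGA) reached 9.90, 9.40 and 8.69. Histidine decarboxylase (HDC), which makes histamine, stood at 5.62. The lowest lists were neutrophil at 3.40, intestinal epithelium at 3.88, red blood cell at 3.93, squamous epithelium at 3.97 and pancreatic acinar cell at 4.40, against a 10th percentile of 3.16 for all named genes. S100A8 of neutrophils read 2.71 to 3.84, HBB of red cells 2.69 to 4.19 and KRT5 of squamous epithelium 3.02 to 4.69 over the 7 arrays. No value of these lists was at 0, and a reading in the range of these 3 genes cannot be told from background on these arrays. Some members had higher means. They were 7.31 for PNLIPRP2 and 5.99 for CELA1 of the pancreatic acinar list. In the intestinal epithelium list they were 7.02 for VIL1, 6.06 for MUC2 and 5.51 for CDH17.

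Most genes varied little among pigs. The median within-set SD of the named genes was 0.16 and the 90th percentile 0.35. An SD of at least 0.5 was found for 451 genes (4.13%) and of at least 1 for 62. Among the 500 genes with the highest mean, the 10 steadiest had SDs from 0.025 to 0.036. They were EEF1A1, LARP1, UBE2D3, RPL4, RPL5, NCOA4, RPS12, HDLBP, COX2 and RAB14, of which 5 belong to translation as ribosomal proteins, an elongation factor or a regulator of ribosomal protein mRNA. EEF1A1 read 11.72, 11.70 and 11.77, then 12.26, 12.23, 12.24 and 12.25. The gland markers lay below the median SD of the named genes, with SDs of 0.14 for ATP4A, 0.07 for ATP4B, 0.05 for PGA5, 0.10 for PGC, 0.08 for GKN1 and 0.05 for GKN2. That median covers genes of all levels, while these markers lie where intensities may approach saturation. Among other genes of similar level, SSR2 had an SD of 0.06, RPL8 of 0.05 and COL1A1 of 0.20. The part of saturation in these SDs was not tested.

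Of the 25 genes with the largest SD among the 5456 above the median level, 1 was the smooth muscle gene CNN1. In the test described below 12 of the other 24 rose with it, beside 126 of 10911 named genes and 0.921% of all rows. The genes were chosen for a large SD, and without pigs 2 and 4 no row was called by limma. Intrinsic factor (GIF), needed for the uptake of vitamin B12, read 7.37, 10.54 and 10.25 in pigs 1 to 3 and 10.33, 9.07, 11.25 and 10.88 in pigs 4 to 7. Pig 2 exceeded pig 1 by 9.0-fold and pig 6 exceeded pig 5 by 4.53-fold. The intestinal mucin MUC2 read 4.45 to 5.52 in pigs 1 to 5 and 8.30 and 8.76 in pigs 6 and 7. PSAT1, an enzyme of serine synthesis, read 8.67, 7.51 and 7.25, then 9.68, 6.29, 10.00 and 10.16, with pig 5 lowest of all 7. AQP5, a water channel of gland mucous cells, read 7.99, 5.76 and 6.50, then 6.37, 6.79, 8.65 and 8.57, high in pigs 1, 6 and 7. The 25th SD was 1.13 and the 26th 1.12.

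A second row of the same gene gave a check of such spread. For 40 genes with an SD of at least 0.5, the set-centred values of the 2 rows had a median correlation of 0.95. For 507 genes with an SD under 0.2 it was 0.54. Both rows of a gene were read on the same 7 arrays.

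**Figure D2:**
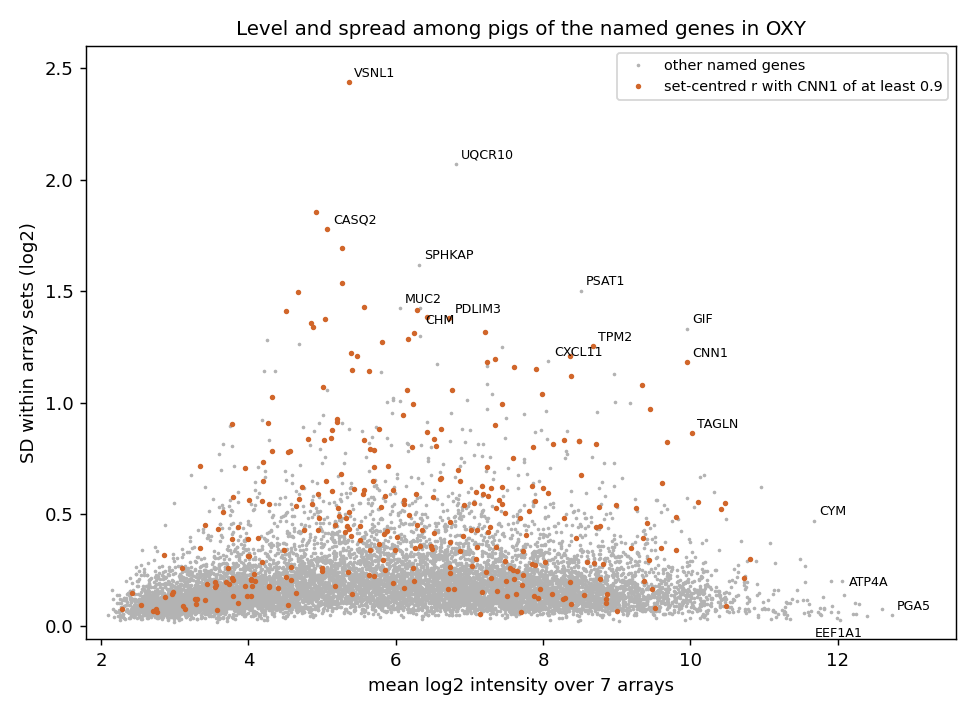
Within-set SD (y axis, log2) of each named gene against its mean log2 intensity (x axis), with genes whose set-centred correlation with CNN1 is at least 0.9 in orange. PGA5 and ATP4A at the right lie near the floor. Orange points are frequent above an SD of 0.5, where they make up 29.1% of 450 genes against 2.73% of all named genes.

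Smooth muscle genes gave the widest shared variation. CNN1, calponin of the smooth muscle contractile apparatus, read 8.64, 11.23 and 10.71 in pigs 1 to 3 and 11.32, 9.43, 9.14 and 9.23 in pigs 4 to 7. Pigs 2 and 4 were highest in their sets, pig 2 by 6.02-fold over pig 1 and pig 4 by 4.56-fold over pig 6. TAGLN, transgelin, an actin-binding protein of smooth muscle, read 9.23, 11.05 and 10.63, then 10.98, 9.62, 9.26 and 9.37. TPM2, a muscle tropomyosin, read 7.13, 10.03 and 9.15, then 10.17, 8.25, 7.74 and 8.26. TAGLN had the pigs of each set in the order of CNN1, and TPM2 too except for pigs 5 and 7, which were nearly equal. In the mean of the 12 measured genes of the list, the deviations from the set mean were -1.10, 0.89 and 0.21 for pigs 1 to 3 and 1.28, -0.27, -0.59 and -0.43 for pigs 4 to 7. All 66 gene pairs of the list correlated positively, with a median r of 0.97 over the 7 pigs, against 0.003 for all pairs of named genes. The list's median level was 9.01, at the 92.1st percentile.

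CNN1 was taken as the reference of smooth muscle because DES, MYH11 and ACTG2 were not named on these rows. The slope of each of the other 27459 rows on the level of CNN1 was estimated with limma, with the array set as a term. Adjustment of p (Benjamini-Hochberg) ran over the whole set of rows. A slope is the change in log2 intensity per unit of log2 CNN1. In all, 253 rows rose with CNN1 (0.921% of the rows) and 24 fell (0.0874%), and among named genes 126 rose and 13 fell. The median slope of all named genes was -0.01. Of the smooth muscle list 9 of 11 tested genes rose, with a median slope of 0.73. TAGLN had a slope of 0.73 ± 0.04 (SE, adjusted p = 0.0016), TPM2 of 1.05 ± 0.07 (adjusted p = 0.0016) and TPM1 of 0.43 ± 0.05 (adjusted p = 0.017). ACTA2, the actin that smooth muscle shares with myofibroblasts, had 0.23 ± 0.05 and did not pass (adjusted p = 0.12). It read 10.37, 10.89 and 10.68, then 11.36, 10.98, 10.75 and 10.62, with the same pigs highest.

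Genes outside the list also rose with CNN1. FLNC, a filamin of muscle, had a slope of 1.00 ± 0.05 (adjusted p = 0.0016), and PDLIM3, an α-actinin binding protein of the Z line, one of 1.15 ± 0.08 (adjusted p = 0.0028). VSNL1, a neuronal calcium sensor, had a slope of 2.04 ± 0.12 (adjusted p = 0.0016). Its set-centred range was the widest of all named genes, from 3.05 to 7.77 in pigs 1 to 3 and from 3.49 to 8.59 in pigs 4 to 7. The lowest readings, in pigs 1 and 6, cannot be told from background, so the size of this range and slope is uncertain. Phospholamban (PLN) and calsequestrin 2 (CASQ2), regulators of calcium stores in muscle, belong to the list and are among its genes that rose. They had slopes of 1.23 ± 0.12 and 1.48 ± 0.11 (adjusted p = 0.0081 and 0.0030). The mean of PLN, 4.68, also lies in the range that cannot be told from background. Outside the list, betacellulin (BTC), an EGF receptor ligand, rose by 0.93 ± 0.11 (adjusted p = 0.014). BARX1, a homeobox gene of the stomach mesenchyme, rose less steeply, by 0.45 ± 0.07 (adjusted p = 0.048).

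Neurons and matrix were less uniform. Of 12 genes of enteric neurons and glia, 2 rose with CNN1, the neuronal growth gene STMN2 by 0.44 ± 0.06 and UCHL1, which marks neuron bodies, by 0.62 ± 0.10 (adjusted p = 0.022 and 0.045). All 12 slopes were above 0. VIP, a relaxing neuropeptide, read 3.31, 6.31 and 4.19, then 6.29, 4.07, 4.31 and 4.33, highest in pigs 2 and 4, and did not pass (adjusted p = 0.071). The readings of VIP in the other pigs and the mean of UCHL1, 4.56, lie in the range that cannot be told from background. By limma 0 of 13 fibroblast and matrix genes passed, with a median slope of 0.19, 12 slopes above 0 and 9 of them at an unadjusted p under 0.05. Both lists had pigs 2 and 4 highest in their sets, with deviations of 0.47 and 0.35 for neurons and glia and of 0.28 and 0.28 for matrix.

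The named genes that fell with CNN1 had smaller slopes, from -0.26 to -0.50, and several are epithelial. Their calls were less stable than those of the genes that rose. Without pig 1, 2 or 4, 0 of the 13 were called again. In 4 or more of the 7 fits without 1 pig, 0 of the 13 were called, beside 51 of the 126 that rose. AOC1, the diamine oxidase that degrades histamine, read 10.06, 9.07 and 9.36, then 9.66, 10.20, 10.52 and 10.26, with a slope of -0.35 ± 0.05 (adjusted p = 0.023). PROM2, a membrane protein of epithelial protrusions, had -0.35 ± 0.04 (adjusted p = 0.018), DGAT2, an enzyme of triglyceride synthesis, -0.36 ± 0.05 (adjusted p = 0.023) and WFDC2, a secreted protease inhibitor of epithelia, -0.50 ± 0.07 (adjusted p = 0.025). CREB3L4, a transcription factor activated at the endoplasmic reticulum, and the syntenin SDCBP2 had -0.38 ± 0.05 and -0.31 ± 0.04 (adjusted p = 0.021 and 0.018). In each of these 6 genes pig 2 and pig 4 were lowest in their sets, with CREB3L4 equal in pigs 2 and 3 to 2 decimals. Of the parietal, chief, surface mucous and neck mucous lists, no gene passed in either direction by limma, and the median slopes were -0.07, 0.08, -0.08 and -0.42. At an unadjusted p under 0.05, 1 parietal gene had a positive slope, and 1 parietal, 2 surface mucous and all 3 neck mucous genes had negative ones.

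These counts rested on few pigs. Without pig 1, 2, 4, 6 or 7 the number of rows called was 42, 41, 11, 121 or 137, against 277 in all, and without both pigs 2 and 4 it was 0. All 277 rows kept the sign of their slope when any 1 pig was left out. They had been called on these same 7 arrays, so the kept signs add no independent support. The named genes FLNC, PDLIM3, PYGM, TAGLN and VSNL1 were called in all 7 fits without 1 pig. Leaving out pigs removes part of the range of CNN1 itself as well as residual degrees of freedom, of which 4 were available with 7 arrays. With array sets ignored 34 rows were called. The median correlation of the smooth muscle list stayed between 0.95 and 0.98 without any 1 pig and was 0.93 without pigs 2 and 4. How much muscle each piece of tissue held was not given in the labels, and its part in this variation was not tested.

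**Figure D3:**
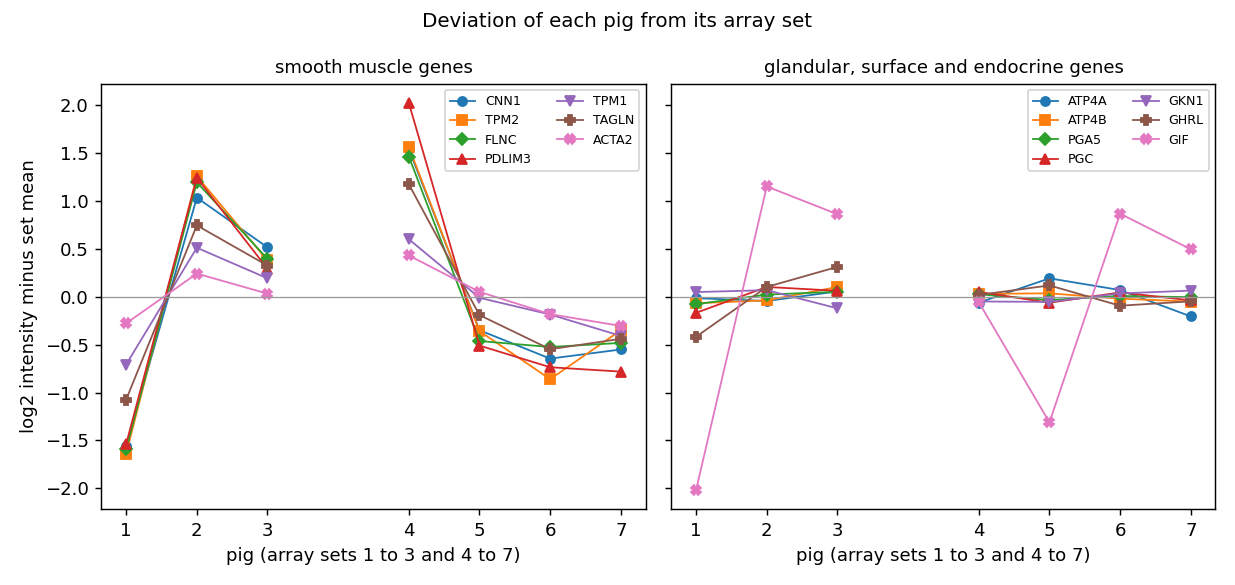
Log2 intensity minus the mean of the array set (y axis) for each pig (x axis, the sets 1 to 3 and 4 to 7 apart), with a line for each gene. Smooth muscle genes (left) peak in pigs 2 and 4, with CNN1 at 1.04 and 1.54. On the right, ATP4A, ATP4B, PGA5, PGC and GKN1 stay between -0.20 and 0.19, GHRL is lowest in pig 1 at -0.42, and GIF is low in pigs 1 and 5.

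Parietal, chief, surface mucous and ghrelin cells were then followed through 1 reference gene each in the same fit. With ATP4B, PGC, GKN1 or GHRL as the reference, limma called 0 rows after adjustment, which is 0% of 27459 rows in each fit. An unadjusted p under 0.05 was reached by 758 rows that went with ATP4B and 837 that went against it. These numbers were 1077 and 976 for PGC, 744 and 654 for GKN1, and 1018 and 976 for GHRL, or 5.09 to 7.48% of rows. With array weights PGC gave 37 rows, and without pig 2 GHRL gave 1. The SDs of the 4 references were 0.07, 0.10, 0.08 and 0.25, beside 1.18 for CNN1.

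The genes nearest to each reference are given by their values, none having passed. PTGER3, a prostaglandin E2 receptor, read 7.55, 7.60 and 8.67, then 8.82, 8.83, 8.72 and 8.01. Its slope was 7.23 ± 1.16 on ATP4B and -5.79 ± 1.04 on GKN1 (adjusted p = 0.832 and 0.923). CYM read 10.29, 11.54 and 11.52, then 12.28, 11.87, 12.17 and 12.10, with pigs 1 and 5 lowest as for PGC, and a slope of 4.46 ± 0.62 on PGC (adjusted p = 0.388). LRRC8B, a subunit of volume-regulated anion channels, had -7.17 ± 0.71 on PGC (adjusted p = 0.271). RPL10, a ribosomal protein, had a slope of 1.43 ± 0.18 on GHRL (adjusted p = 0.373).

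Correlations between chosen genes were computed for 13 pairs of 16, as TFF1 and DES had no named row. Set-centred values were compared with an exact two-sided permutation test within the sets, in which the smallest possible p is 0.0069. No pair passed after Benjamini-Hochberg adjustment over the 13, and the smallest adjusted p was 0.15. Before adjustment 4 pairs had a p under 0.05.

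GKN1 ran against ATP4B, with r = -0.97 (exact p = 0.0208, adjusted 0.15) and rho = -0.86 (exact p = 0.0694, adjusted 0.339). GKN1 read 11.48, 11.50 and 11.31, then 11.95, 11.95, 12.04 and 12.07, so that pig 3 was lowest where ATP4B was highest. Without pigs 3 and 5, the 2 farthest from the median of GKN1, r was -0.86, and within the sets it was -0.97 (n = 3) and -0.99 (n = 4). With each array centred on its median r was -0.64 (adjusted p = 0.397, exact permutation test), and with the array sets ignored the sign turned, to 0.92. The whole range is small, 1.14-fold for GKN1 and 1.13-fold for ATP4B in pigs 1 to 3.

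The pepsinogens PGA5 and PGC had r = 0.93 (exact p = 0.0486, adjusted 0.158), rho = 0.89 (exact p = 0.0347, adjusted 0.339) and r = 0.91 without pigs 1 and 3. Without pig 1 alone r was 0.67, and under quantile normalization it was 0.43. ATP4B and ESRRB had r = 0.76 (exact p = 0.0278, adjusted 0.15), rho = 0.61 (exact p = 0.0833, adjusted 0.339) and r = 0.92 without pigs 3 and 5. PGC and BHLHA15, the transcription factor of mature secretory cells also called MIST1, had r = 0.68 (exact p = 0.0347, adjusted 0.15), rho = 0.57 (exact p = 0.194, adjusted 0.421) and only 0.43 without pigs 1 and 5. GHRL and SST had r = 0.92 (exact p = 0.0625, adjusted 0.163), rho = 0.82 (exact p = 0.104, adjusted 0.339) and r = 0.87 without pigs 1 and 3, but 0.52 without pig 1 alone. Within the sets these 4 pairs had r of 0.94 and 0.91, 0.97 and 0.99, 1.00 and 0.76, and 0.94 and 0.87.

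The 2 pump subunits did not show a correlation past the threshold, with r = 0.50 (exact p = 0.125, adjusted 0.271), rho = 0.50 (exact p = 0.194, adjusted 0.421) and r = 0.32 without pigs 5 and 7. For ATP4B with KCNE2, AQP4, KCNJ15, ATP5G3 and PGC, r lay between -0.08 and 0.56, with exact p from 0.299 to 0.993. Without 1 pig these values moved widely, from 0.79 (pig 1) to -0.0020 (pig 7) for KCNE2, from 0.69 (pig 1) to -0.34 (pig 2) for AQP4 and from 0.91 (pig 6) to 0.02 (pig 3) for KCNJ15. They moved from 0.74 (pig 2) to -0.20 (pig 1) for PGC and from 0.10 (pig 4) to -0.41 (pig 1) for ATP5G3. LYZ, lysozyme, and PIGR, which carries IgA through epithelium, had r = 0.58 (exact p = 0.313) and -0.69 without pigs 5 and 7. Without pig 5 alone r was 0.47 and without pig 7 alone -0.19, so the relation rests on pig 7.

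**Figure D4:**
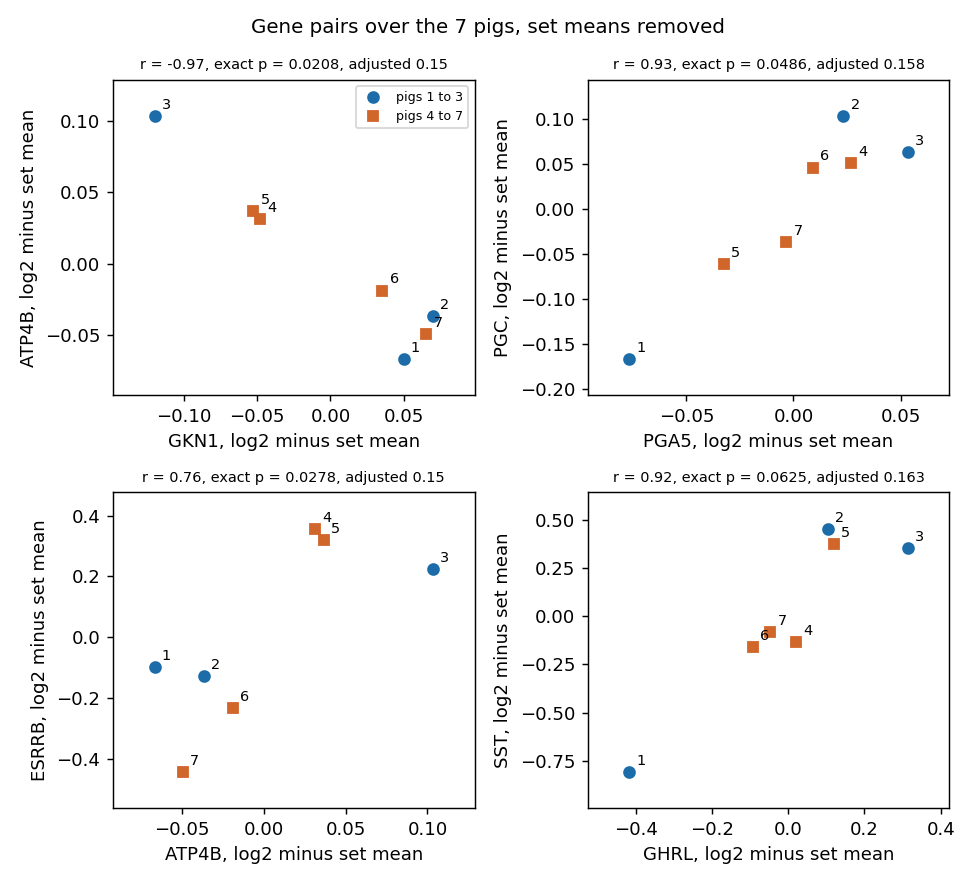
Set-centred log2 intensities of 4 gene pairs, 1 point for each pig with its number, circles for pigs 1 to 3 and squares for pigs 4 to 7. GKN1 and ATP4B lie on a falling line (r = -0.97), the other 3 pairs on rising ones, and pig 1 is the low end for PGA5 with PGC and for GHRL with SST.

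Across the 44 lists, the median pairwise correlation of 12 was at least 0.5, beside a median of 0.003 and a 10th to 90th percentile of -0.63 to 0.64 for all pairs of named genes. These correlations are over 7 pigs that share the same arrays and are given as a description. After smooth muscle they were led by proliferation at 0.87 (12 genes), neck and gland mucous cell at 0.84 (3 genes), protein folding in the endoplasmic reticulum at 0.83 (18), T cell at 0.83 (16), interferon response at 0.82 (18), antigen presentation by MHC class I at 0.82 (10) and fibroblast and matrix at 0.77 (13). Proteasome, chief cell, endothelial cell and cholesterol synthesis had 0.70, 0.68, 0.63 and 0.58. The parietal list stood at 0.36, with 0.55 without pig 1, 0.16 without pig 2 and 0.14 without pig 7. ATP synthase stood at 0.11, between 0.0049 and 0.24 without any 1 pig, and respiratory chain at 0.04, between 0.03 and 0.11. Without any 1 pig the 12 lists kept at least 0.5 in 81 of 84 cases. The exceptions were endothelial cell without pig 5 (0.41) or 7 (0.47) and cholesterol synthesis without pig 5 (0.17).

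The T cell list was lowest in pig 5 and highest in pig 7 of their set. It deviated by 0.26, -0.22 and -0.03 in pigs 1 to 3 and by -0.16, -0.43, -0.19 and 0.78 in pigs 4 to 7. Granzyme B (GZMB), a protease of killer lymphocytes, read 6.95, 6.61 and 6.36, then 6.98, 6.09, 7.32 and 8.76. CD3E, a chain of the T cell receptor complex, read 7.56, 7.07 and 7.41, then 8.12, 8.12, 8.32 and 9.14, and the chemokine CCL5 read 8.71, 8.10 and 8.40, then 8.79, 8.42, 8.75 and 10.14. Pig 7 was highest of its set for all 3. Of their set, pig 5 was also lowest and pig 7 highest for macrophage and dendritic cell, at -0.31 and 0.28. The same held for antigen presentation by MHC class II, at -0.08 and 0.12. Pig 5 was not lowest for neutrophil, mast cell or B and plasma cell. There pigs 5 and 7 stood at 0.06 and 0.02, 0.06 and 0.07, and 0.04 and 0.13. Without pig 7 the median correlation of the T cell list was 0.58 against 0.83.

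Interferon-responsive genes had the order of the T cell list in pigs 1 to 3, and again pig 5 lowest and pig 7 highest in the other set, with deviations of 0.59, -0.61 and 0.02, then -0.11, -0.54, 0.17 and 0.47. CXCL10, a chemokine that interferon γ induces, read 9.20, 6.79 and 8.65, then 9.68, 8.29, 8.84 and 9.68. OAS2, an antiviral RNA sensor, read 10.02, 9.38 and 9.81, then 9.78, 9.32, 10.75 and 10.64. MHC class I genes moved in the same order in pigs 1 to 3, with 0.38, -0.43 and 0.05, and pig 7 was highest of its set at 0.34. TAP1, which loads peptides for MHC class I, ranged from 8.30 in pig 2 to 9.72 in pig 1 and from 9.35 in pig 5 to 10.38 in pig 7. Pig 2, lowest in these lists in its set, was the pig highest in smooth muscle, whereas pig 4, highest in smooth muscle in the other set, was not the lowest there. On CNN1, 0 of the 18 interferon and 0 of the 10 MHC class I slopes were above 0, with medians of -0.26 and -0.16. By limma 0 genes of either list passed, and 7 and 2 had negative slopes at an unadjusted p under 0.05.

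Proliferation genes had their spread mainly in pigs 4 to 7. They deviated by 0.05, -0.05 and 0.00 in pigs 1 to 3 and by -0.28, -0.52, 0.25 and 0.54 in pigs 4 to 7. CDK1, the kinase that starts mitosis, read 5.97, 6.08 and 5.80, then 6.59, 5.94, 6.98 and 7.45. Folding genes of the endoplasmic reticulum and cholesterol synthesis genes had the same order in pigs 4 to 7, with pig 5 lowest (-0.22 and -0.48) and pig 7 highest (0.19 and 0.29). SQLE, an enzyme of cholesterol synthesis, read 7.98, 6.74, 8.58 and 8.87 in those pigs, and MANF, a folding factor of the endoplasmic reticulum, 8.29, 8.12, 8.66 and 8.97.

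The mean of the 6 chief cell genes was lowest in pigs 1 and 5, with deviations of -0.42, 0.21 and 0.21, then 0.03, -0.40, 0.25 and 0.11. BHLHA15 read 7.52, 7.98 and 7.91, then 7.83, 7.11, 8.10 and 7.85. GIF had the largest SD of the list, 1.33, and the other 5 genes had SDs of 0.37 or less. The paper reports GIF as higher in PYL, unlike the pepsinogens, so its place in a chief cell list is uncertain. Without GIF, an alternative chosen after seeing the data, the deviations in pigs 1 and 5 were -0.11 and -0.21. XBP1, a transcription factor of secretory cells, was highest of its set in pig 1. The neck and gland mucous list, with AGR2, MUC6 and AQP5, deviated by 0.61, -0.63 and 0.02, then -0.82, -0.44, 0.66 and 0.60. The gland mucin MUC6 read 10.34, 9.16 and 10.52, then 9.52, 10.11, 10.91 and 10.75, lowest in pigs 2 and 4, the pigs highest in smooth muscle. The slope of MUC6 on CNN1 was -0.42 ± 0.15 and did not pass (adjusted p = 0.33).

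**Figure D5:**
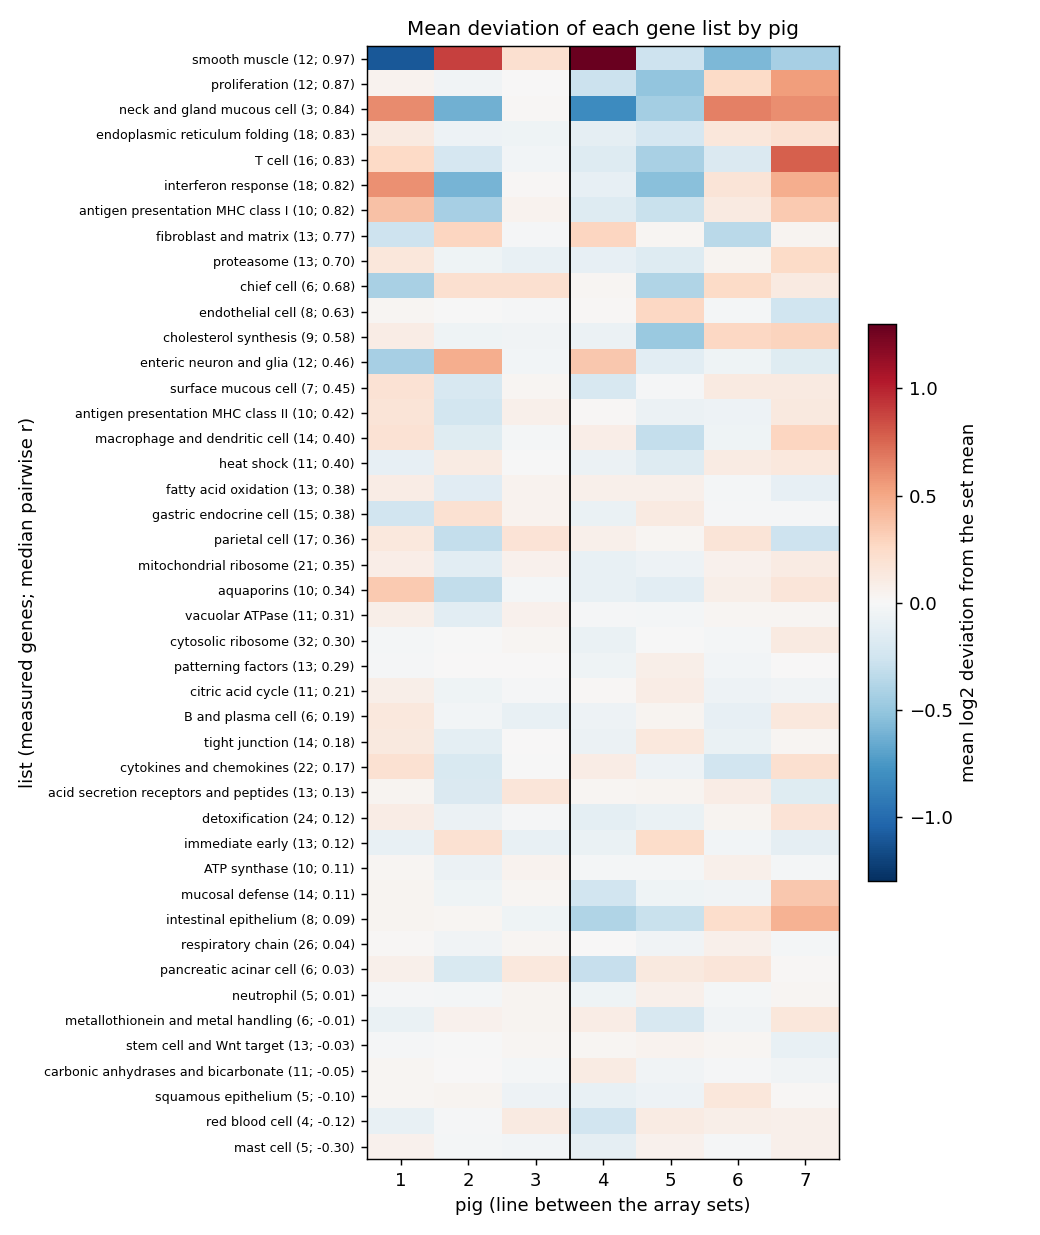
Mean log2 deviation from the set mean (colour) of each of 44 gene lists (y axis, with the number of measured genes and the median pairwise correlation) in each pig (x axis). Smooth muscle spans the widest range, from -1.10 in pig 1 to 1.28 in pig 4.

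Principal components of the set-centred values of the 5456 genes above the median level were computed without lists. The first component held 46.2% of the variance, and pigs 2 and 4 lay at one end (0.194 and 0.195) with pigs 1, 7 and 6 at the other (-0.204, -0.144 and -0.124). Its largest loadings towards CNN1 were PDLIM3, OLFML2B, EPHA7, PRUNE2, PTCHD1, SOSTDC1, DMD and TPM2, and those away from it were AQP5, MUC2, PNLIPRP2, CLCA1, CHAC1, IFITM3, MMP13 and PLAC8. The second component held 21.4% and separated pig 7 (0.148) from pig 5 (-0.197), with PSAT1, GZMB and GZMA at the end of pig 7 and the chemokine CCL20 at the other. CCL20, which attracts dendritic cells and lymphocytes to epithelia, read 5.80, 5.14 and 6.04, then 5.91, 7.59, 5.44 and 5.67, highest in pig 5. With 7 pigs and 2 set means removed, 5 components hold all of the variance.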

How the data were processed

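The deposited intensities of a whole-transcript porcine array are on a linear scale; the authors name a Robust Multichip Analysis, and the steps behind the deposited scale are not given in the sources used here. Values were log2-transformed and not normalized again. The arrays of pigs 1 to 3 carry log2 values on 2 decimals and a lower distribution than those of pigs 4 to 7, so set means were removed, or the set entered the model. Rows were named from the platform annotation. Of 27460 rows, 373 carry several symbols and 15105 none, and these were tested but not named. Some rows (1239) hold the values of another row. No reference sequence was used here.

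The members, the 44 lists, the reference genes and the pairs were chosen with earlier results of these data known. Named are the 4 markers, the 30 genes of highest mean, the 25 of largest SD above the median level, the 10 steadiest of 500, up to 4 highest and 2 most variable members of a list, the references, the genes of the pairs, up to 5 genes in each direction of a fit and up to 8 per end of a component. GAST, PYGM and the members of the lists named otherwise were added after their values were seen. Slopes were fitted with limma (version 3.58.1, R 4.3.3), with an adjusted p under 0.05 as the threshold. The SE is limma's moderated one. CNN1 stood in for DES. Each pig gave 1 array, so p measures the spread among pigs and technical noise together, and the number of arrays limits the precision. The fits were checked on simulated data with independent rows, which cannot test the calls among the correlated rows of these arrays. Alternatives were median centring, quantile normalization, a filter on low rows, ignoring the sets, another prior, array weights, 1 row per gene, other rows of a gene and leaving out pigs. The 7 PYL arrays were not used.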

Additional observations from a re-analysis of the deposited data

Results flagged for a closer look

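Set-centred values of 117 items (the 44 list means, the markers, the 30 highest, 25 most variable and 10 steadiest genes, the reference genes and the genes of the pairs) were examined for 1 pig far from the other 6 with Dixon's test. Only 4 stood apart, fewer than the 1 in 20 that chance gives, so they are listed by their values alone. That rate is approximate, because set means were removed and some items were chosen for their SD. CHM, which escorts Rab proteins to their lipid modification, read 3.58 in pig 6 and 6.21 to 7.29 in the other pigs, a deviation of -2.75 against -0.11 to 0.96. LOC100515902, a gene the annotation does not describe, deviated by -2.14 in pig 5, against -0.33 to 0.89. PSAT1, also lowest in pig 5 at 6.29, was not among the 4. The mitochondrial gene ND1 deviated by 0.14 in pig 5, against -0.06 to 0.01, and the ribosomal protein RPS10 by 0.15 in pig 7, against -0.08 to 0.01. The last 2 deviations are small in size. None of the list means stood apart by this test.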

How the results depend on the processing

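No paired analysis was possible because OXY was described alone and no group was compared with another. Of the counts and shares, 116 values under an alternative stayed within 1.5 times the value reported, and 16 did not. With array sets ignored, 24111 rows were called with ATP4B, 20821 with PGC, 23941 with GKN1 and 34 with CNN1. The same setting gave 5362 genes with an SD of at least 0.5, 4 pairs past the adjusted threshold and 44 lists with a median correlation of at least 0.5. These follow from leaving the shift between the sets in the data. Array weights gave 37 rows with PGC and 573 with CNN1, the cause of which was not tested. Without 1 pig, CNN1 called 11 to 325 rows and GHRL 0 to 1, while ATP4B, PGC and GKN1 called 0, and 28 to 30 of the 30 highest genes were shared. Genes with an SD of at least 0.5 numbered 412 to 539, the first component held 43.1 to 56.6% and 12 to 18 lists reached 0.5. Leaving out pigs 2 and 4, an alternative chosen after seeing the data, gave 0 rows with CNN1, 364 genes, 53.9% and 14 lists. Quantile normalization gave 275 rows with CNN1 and 1 row per named gene gave 196. Among pairs short of the threshold the sign turned in 17 cases. With the sets ignored r was 0.92 for GKN1 with ATP4B, 0.78 for ATP4B with AQP4 and 0.66 for ATP4B with ATP5G3. With each array centred on its median AQP4 had 0.42 and ATP5G3 0.17, under quantile normalization AQP4 had 0.17, and by rank ATP5G3 had 0.18. Without 1 pig the r of ATP4B ran from -0.0020 to 0.79 with KCNE2, from -0.34 to 0.69 with AQP4, from -0.41 to 0.10 with ATP5G3 and from -0.20 to 0.74 with PGC, and that of LYZ with PIGR from -0.19 to 0.78. No pair passed without any 1 pig, and the 4 pairs that did with the sets ignored were ATP4B with ESRRB, PGA5 with PGC, ATP4B with PGC and GKN1 with GKN2.

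Detection calls were not used here, and low readings cannot be told from background.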

Other observations

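A few rows took values in separate ranges. In 12 rows, 6 of them named, the set-centred values of the 7 pigs left a gap of at least 2 on the log2 scale, and in 6 of the 12 a single array stood on 1 side of it. UQCR10, annotated as a subunit of respiratory complex III, read 8.51, 4.81 and 5.10 in pigs 1 to 3 and 9.10, 5.27, 9.12 and 5.80 in pigs 4 to 7, so that pigs 1, 4 and 6 lay at least 2.82 above the other 4 after set-centring. The second row of SLC2A2 read 8.71, 3.06 and 3.17, then 5.23, 10.30, 4.59 and 4.87, high in pigs 1 and 5. AKR1C1, an aldo-keto reductase, read 3.15 to 4.83 in 6 pigs and 7.36 in pig 7. SPHKAP, a kinase-anchoring protein, read 6.51, 7.33 and 4.52, then 7.39, 8.41, 4.89 and 5.12, without such a gap but with the second largest SD, 1.62, among genes above the median level. Nothing about the genotype of the pigs was given in the labels beyond their cross, and the source of these ranges was not tested.

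The stress- and amino acid-linked gene CHAC1, which degrades glutathione, read 5.90, 4.33 and 4.73, then 6.35, 5.38, 8.06 and 6.99, highest in pig 6. The calcium-activated chloride channel regulator CLCA1, a product of goblet cells in the intestine, read 6.76, 5.39 and 6.04, then 7.43, 8.22, 8.63 and 9.97. Within pigs 4 to 7 it was highest in pig 7, as was MUC2, while in pigs 1 to 3 MUC2 stayed between 4.45 and 5.22.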
